A study of Homo sapiens with 16 samples.

Results

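The ETS factors are transcription factors that share a DNA-binding domain and recognise a GGAA core, and many of them are switched by the kinase ERK, which MEK activates. Expression of 10 ETS genes was examined: ETV1, ETV4, ETV5, ETS1, ETS2, ELK1, ELK3, ELK4, ERF and GABPA. A gene was measured by the array row that carried its symbol and no other, and with several such rows the one selected on the highest mean over all arrays would have been used. Of the 10 genes 9 had such a row, 1 each, among 22464 named genes. The row of ELK4 also carried the symbol SLC45A3, so ELK4 has no value here. The genes were chosen by their family, with the lower values of ETV4 and ETV5 under the MEK inhibitor already known. The inhibitor contrasts of ETV4 and ETV5, their depletion contrast with PD98059, which starts from the same low arrays, and their interaction are therefore given as a description without a test. Their depletion contrast with DMSO was tested, and its arrays also enter the inhibitor contrasts.

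All cultures were HepG2, a human hepatoma line, so replicates are separate incubations of the same line and not separate donors. Cells were pretreated for 1 h with PD98059, which blocks activation of MEK, or with DMSO, the solvent. The agent stayed in place during the next 8 h, in complete DMEM or in DMEM depleted of histidine. The 4 groups of 4 arrays were DMSO in complete medium, DMSO without histidine, PD98059 in complete medium and PD98059 without histidine. The PD98059 dose was 2.5 uM per the label protocol, although sample labels print another unit. Values are the authors' log2 expression values per array row. The arrays measured RNA of whole cultures, in which fewer expressing cells and less RNA per cell cannot be told apart. Of 8 hepatocyte markers 6 had a row, and all 6 lay above the median of all values, from TTR at 8.38 to APOB at 13.63. HNF4A and TF were not measured here. The mean level of the 6 was 11.04 to 11.10 with DMSO in complete medium, 10.93 to 10.99 with DMSO without histidine, 11.10 to 11.14 with PD98059 in complete medium and 10.98 to 11.06 with PD98059 without histidine. Of 9 measured leukocyte, endothelial and fibroblast markers 6 also lay above that median of 6.22, from PTPRC at 3.92 to PDGFRB at 8.05. Their mean level was 6.30 to 6.37 on the arrays with DMSO in complete medium, 6.43 to 6.46 with DMSO without histidine, 6.32 to 6.37 with PD98059 in complete medium and 6.32 to 6.48 with PD98059 without histidine. PDGFRB alone among them was called in the main contrasts, at 0.49 for depletion with DMSO, and its part in the ETS results was not tested. One array stood apart, replicate 3 of PD98059 without histidine: over all genes its distance from the group mean (root mean square) was 0.111, against 0.0496 to 0.0760 on the rest.

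As background, ETV1, ETV4 and ETV5 form the PEA3 subfamily. Their genes are held down by the repressor capicua, which ERK signalling inactivates, so they are widely used as readouts of MEK output. ELK1, ELK3 and ELK4 are ternary complex factors that sit with serum response factor on the promoters of immediate-early genes and are phosphorylated by ERK. ETS1 and ETS2 are activators that ERK phosphorylates beside their pointed domain, ERF is a repressor that ERK drives out of the nucleus, and GABPA is the DNA-binding subunit of GABP, an activator of genes for mitochondrial function.

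Upstream sequences are shown for ETS2, ELK3 and ERF, whose responses to depletion and inhibitor followed 3 of the patterns described below. The pattern of ETV4 and ETV5 is not among these. Each is the 250 bases before the most upstream RefSeq start of the gene in GRCh38.p14, written 5′ to 3′ on the gene's strand, with the ETS core GGAA in capitals on either strand (TTCC where it lies on the other). ETS2 is at chr21:38804933-38805182 (plus strand), ELK3 at chr12:96194125-96194374 (plus strand) and ERF at chr19:42255129-42255378 (minus strand).
ETS2: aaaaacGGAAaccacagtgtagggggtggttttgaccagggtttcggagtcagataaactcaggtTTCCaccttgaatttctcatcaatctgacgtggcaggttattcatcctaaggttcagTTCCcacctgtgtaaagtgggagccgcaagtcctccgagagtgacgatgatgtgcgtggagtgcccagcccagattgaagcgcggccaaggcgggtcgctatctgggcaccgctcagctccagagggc
ELK3: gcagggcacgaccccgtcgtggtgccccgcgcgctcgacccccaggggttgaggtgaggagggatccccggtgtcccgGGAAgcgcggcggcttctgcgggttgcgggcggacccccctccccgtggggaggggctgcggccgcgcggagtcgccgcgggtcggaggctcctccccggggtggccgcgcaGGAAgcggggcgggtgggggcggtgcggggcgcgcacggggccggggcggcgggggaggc
ERF: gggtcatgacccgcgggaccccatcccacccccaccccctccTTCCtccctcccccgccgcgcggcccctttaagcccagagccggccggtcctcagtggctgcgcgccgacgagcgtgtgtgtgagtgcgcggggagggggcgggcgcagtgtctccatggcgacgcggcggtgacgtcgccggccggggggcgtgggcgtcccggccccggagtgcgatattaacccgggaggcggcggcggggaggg

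The ETS2 window held 3 such cores, the ELK3 window 2 and the ERF window 1. RefSeq windows were found for 7 of the 10 genes, 16 windows in all. None was found for ETV4, ETV5 or ETS1, so the counts below say nothing of these genes. Several of the 16 windows belonged to ETV1, and some of those overlapped. GGAA was in all 16, as it was in 92.8% of 34788 windows of the same length. The longer ETS consensus CCGGAAGT, which contains the core, was in 2 of the 16 windows, those of ELK4 and GABPA, against 3.41% of all windows. On both strands, the cyclic AMP response element TGACGTCA (1.64% of all windows) and the C/EBP-ATF element TTGCATCA (0.776%) were in 0 of the 16. The same held for the capicua octamer spelled TGAATGAA (1.4%), the AP-1 site TGANTCA (6.59%) and the CArG box of serum response factor (1.17%). Capicua sites of any other spelling were not searched for, so the windows may hold some. The GC box GGGCGG was in 9 of the 16, against 42.6% of all windows.

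The genes ETV4 and ETV5 were lowest with PD98059 in complete medium and higher without histidine, by a larger value with the inhibitor present than without it. ETV5 values were 9.48, 9.43, 9.47 and 9.42 with DMSO in complete medium, replicates 1 to 4 in order, and 9.65, 9.71, 9.65 and 9.68 with DMSO without histidine. With PD98059 they were 8.41, 8.35, 8.23 and 8.36 in complete medium and 9.15, 9.25, 9.22 and 9.23 without histidine. No array of any ETV5 group overlapped another group. The order was DMSO without histidine, DMSO in complete medium, PD98059 without histidine, PD98059 in complete medium. Full separation of a contrast's 2 groups was common on these arrays. On depletion it was seen in 41.4% of all genes with DMSO and 25.1% with PD98059. For PD98059 in complete and in depleted medium the shares were 21.8% and 23.3%. The share of genes with all 4 groups apart is not given here. Depletion raised ETV5 by 0.22 ± 0.036 (SE) on the log2 scale with DMSO (1.17-fold, limma adjusted p = 0.000104). With PD98059 the difference, not tested, was 0.88 ± 0.036 (1.84-fold). PD98059 without histidine still left ETV5 0.24 below DMSO in complete medium (means 9.21 and 9.45).

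ETV4 showed the same order of groups. Its values were 10.56, 10.51, 10.59 and 10.53 with DMSO in complete medium and 10.65, 10.66, 10.64 and 10.68 with DMSO without histidine. They were 9.56, 9.68, 9.59 and 9.61 with PD98059 in complete medium and 10.08, 10.18, 10.27 and 10.20 with PD98059 without histidine. The groups again did not overlap, although the 2 DMSO groups lay close together. The depletion difference of ETV4 with PD98059, not tested, was 0.57 ± 0.036 (1.49-fold). With DMSO the rise was 0.11 ± 0.036 (1.08-fold, adjusted p = 0.0277), and the call did not survive leaving out any of 5 single arrays, namely complete-medium DMSO replicates 2 and 4 and depleted DMSO replicates 1, 2 and 4 (0.095 to 0.108, adjusted p from 0.0525 to 0.0745). Without replicate 3 of PD98059 without histidine, the depletion differences with PD98059 were 0.55 for ETV4 and 0.88 for ETV5. The inhibitor differences, given as a description, were -0.94 for ETV4 and -1.12 for ETV5 in complete medium and -0.47 and -0.46 without histidine. The depletion response was thus larger under PD98059 by 0.47 for ETV4 and 0.66 for ETV5.

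The third PEA3 gene, ETV1, did not share these values. It lay between 4.66 and 4.80 on all 16 arrays, below the median of all values, and its groups overlapped in every pair. Depletion with DMSO gave 0.03 (95% interval -0.04 to 0.09, adjusted p = 0.530) and PD98059 in complete medium gave -0.03 (-0.09 to 0.03, adjusted p = 0.636). The dim signal limits what this row can register.

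**Figure D1:**
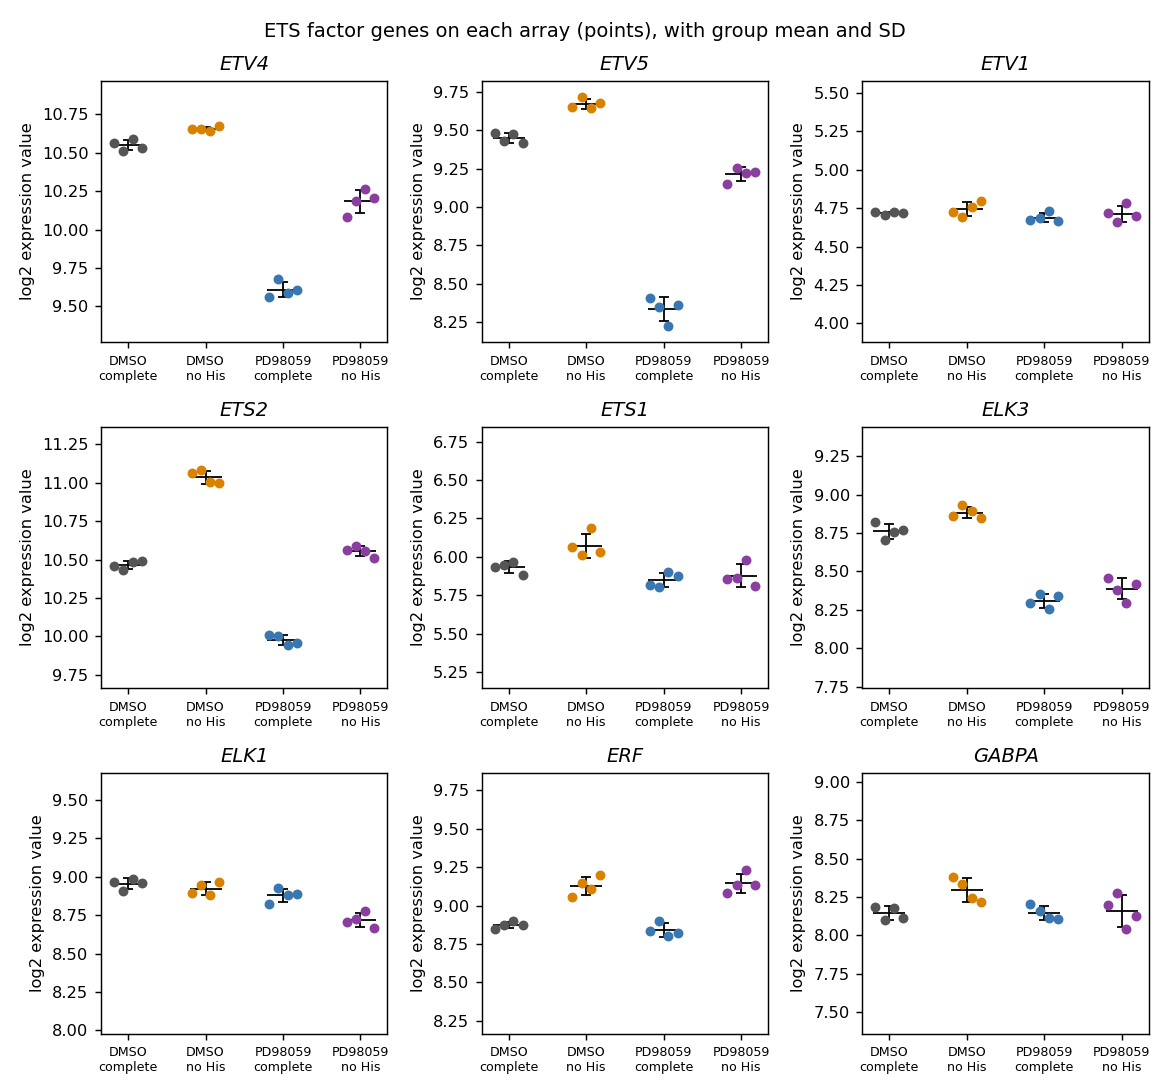
Log2 expression value of each of the 9 measured ETS genes on each array (points, replicates 1 to 4 from left to right in a group), with group mean and SD (n = 4). Every panel spans the same height; ETV4 and ETV5 drop with PD98059 in complete medium and lie higher with PD98059 without histidine, while ETS2 is higher without histidine under either agent.

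ETS2, by contrast, rose on depletion by a like amount with either agent and was lower with PD98059 by a like amount in either medium. Its values were 10.46, 10.43, 10.49 and 10.49 with DMSO in complete medium, 11.06, 11.08, 11.00 and 11.00 with DMSO without histidine, 10.01, 10.00, 9.95 and 9.96 with PD98059 in complete medium, and 10.56, 10.59, 10.56 and 10.51 with PD98059 without histidine. No groups overlapped, and the combined treatment lay just above DMSO in complete medium, by 0.09. Depletion raised ETS2 by 0.57 ± 0.027 with DMSO (1.49-fold, adjusted p = 1.02e-10) and by 0.58 ± 0.027 with PD98059 (1.49-fold, adjusted p = 1.94e-10). PD98059 lowered it by a log2 difference of -0.49 ± 0.027 in complete medium (adjusted p = 5.98e-09) and -0.48 ± 0.027 without histidine (adjusted p = 1.77e-09). The interaction was 0.004, with a 95% interval of -0.08 to 0.09 (adjusted p = 0.975). Under the combined treatment ETS2 thereby ended just above its level with DMSO in complete medium, while ETV4 and ETV5 ended below theirs.

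Its relative ETS1 was dim, from 5.81 to 6.19 over all arrays, with no group mean above the median of all values. Its values were 5.93, 5.95, 5.97 and 5.88 with DMSO in complete medium, 6.06, 6.01, 6.19 and 6.03 with DMSO without histidine, 5.82, 5.81, 5.90 and 5.87 with PD98059 in complete medium and 5.86, 5.86, 5.98 and 5.81 with PD98059 without histidine. DMSO without histidine lay above the other groups, which overlapped. ETS1 rose with depletion under DMSO by 0.14 ± 0.042 (adjusted p = 0.0158), a call that failed when complete-medium DMSO replicate 4 (0.12, adjusted p = 0.0559) or depleted DMSO replicate 3 was left out (0.10, adjusted p = 0.0624). It was lower with PD98059 without histidine, at -0.20 ± 0.042 (adjusted p = 0.0021), and -0.23 without the array that stood apart (adjusted p = 0.000305). The other ETS1 contrasts were not called, at 0.03 for depletion with PD98059 (adjusted p = 0.760; -0.0085 without the array that stood apart and -0.016 with array weights) and -0.08 for PD98059 in complete medium (adjusted p = 0.259).

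Among the ternary complex factors, ELK3, which represses its targets until phosphorylated, was lower under PD98059 in both media. ELK3 values were 8.82, 8.70, 8.75 and 8.77 with DMSO in complete medium and 8.29, 8.35, 8.25 and 8.34 with PD98059 in complete medium. Without histidine they were 8.86, 8.93, 8.89 and 8.85 with DMSO and 8.45, 8.38, 8.29 and 8.42 with PD98059. All DMSO arrays lay above all PD98059 arrays, whereas both PD98059 groups overlapped each other. The inhibitor difference was -0.45 ± 0.037 in complete medium (1.37-fold, adjusted p = 3.09e-07) and -0.50 ± 0.037 without histidine (1.41-fold, adjusted p = 3.8e-08). Depletion raised ELK3 by 0.12 ± 0.037 with DMSO (adjusted p = 0.0167), a call that failed when complete-medium DMSO replicate 2 (0.10, adjusted p = 0.0575) or depleted DMSO replicate 2 (0.11, adjusted p = 0.0566) was left out, or with arrays shifted to the same median (0.11, adjusted p = 0.072). Under PD98059 the depletion value of 0.08 was not called (adjusted p = 0.150), but it was 0.11 without the array that stood apart (adjusted p = 0.0215).

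ELK1, the best studied activator of this subfamily, was lowest with PD98059 without histidine. Its values there were 8.71, 8.73, 8.77 and 8.67, against 8.82, 8.93, 8.88 and 8.89 with PD98059 in complete medium and 8.90, 8.95, 8.88 and 8.97 with DMSO without histidine. With DMSO in complete medium they were 8.97, 8.91, 8.99 and 8.96. The combined treatment did not overlap the other groups, and those 3 overlapped each other. ELK1 fell with depletion under PD98059 by a log2 difference of -0.16 ± 0.031 (adjusted p = 0.000777) and with PD98059 without histidine by -0.20 ± 0.031 (adjusted p = 9.83e-05). Depletion with DMSO gave -0.03 (adjusted p = 0.443) and PD98059 in complete medium -0.08 (adjusted p = 0.126). The interaction of -0.13 was not called (adjusted p = 0.118). It was called without the array that stood apart (-0.15, adjusted p = 0.0307), with array weights (-0.15, adjusted p = 0.00883) and with an added quantile normalization (-0.14, adjusted p = 0.0364).

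ERF, the repressor, rose on depletion with either agent, and neither of its inhibitor differences was called. Its values were 8.85, 8.87, 8.90 and 8.87 with DMSO in complete medium and 9.06, 9.15, 9.11 and 9.20 with DMSO without histidine. With PD98059 they were 8.84, 8.90, 8.80 and 8.82 in complete medium and 9.08, 9.14, 9.23 and 9.13 without histidine. The depleted arrays all lay above the arrays in complete medium. Depletion raised ERF by 0.25 ± 0.035 with DMSO (1.19-fold, adjusted p = 2.41e-05) and by 0.30 ± 0.035 with PD98059 (1.23-fold, adjusted p = 5.05e-06). The inhibitor difference was -0.03 in complete medium (95% interval -0.11 to 0.04, adjusted p = 0.678) and 0.02 without histidine (-0.06 to 0.09, adjusted p = 0.809), the latter turning to -0.011 without the array that stood apart.

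The group means of GABPA spanned 0.15, the smallest span among the 7 genes above the median of all values, although ELK1, ETV4 and ELK3 had smaller differences on depletion with DMSO. Its values were 8.19, 8.10, 8.18 and 8.11 with DMSO in complete medium, 8.38, 8.34, 8.24 and 8.22 with DMSO without histidine, 8.21, 8.16, 8.11 and 8.11 with PD98059 in complete medium and 8.20, 8.28, 8.04 and 8.12 with PD98059 without histidine. Only DMSO without histidine stood above both complete-medium groups, and PD98059 without histidine overlapped all others. The depletion rise with DMSO was 0.15 ± 0.048 (adjusted p = 0.0214). It failed when complete-medium DMSO replicate 2 or 4 or depleted DMSO replicate 1 or 2 was left out (0.12 to 0.14, adjusted p from 0.0586 to 0.0770) and with arrays shifted to the same median (0.14, adjusted p = 0.075). The inhibitor difference without histidine was -0.14 ± 0.048 (adjusted p = 0.0495), a call that was lost in 13 of the 16 fits that left out an array (-0.15 to -0.095, adjusted p from 0.05002 to 0.161). The remaining values, 0.01 for depletion under PD98059 (adjusted p = 0.901) and 0.002 for PD98059 in complete medium (adjusted p = 0.988, turning to -0.0067 with arrays shifted to the same median), were not called.

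**Figure D2:**
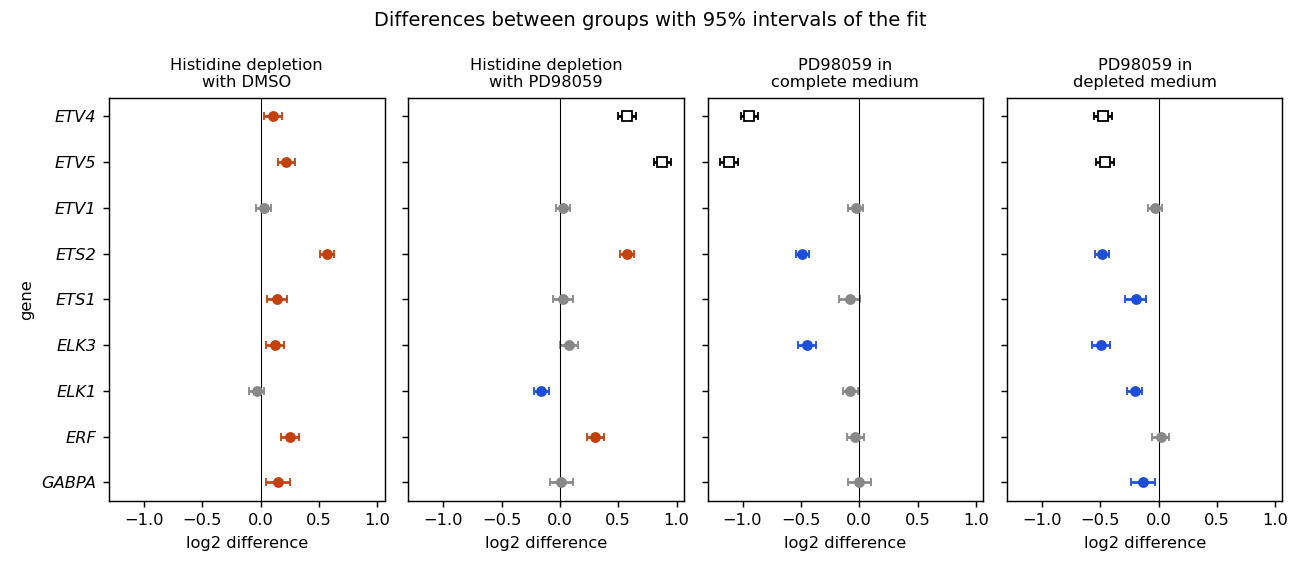
Log2 differences of the 9 ETS genes in the 4 contrasts (points) with 95% intervals of the fit. Orange-red marks genes called higher, blue genes called lower and grey genes not called at an adjusted p under 0.05, and open squares mark ETV4 and ETV5 under the inhibitor, and in depletion with PD98059, which were not tested; the depletion points of ETV4 and ETV5 lie further right with PD98059 (0.57 and 0.88) than with DMSO (0.11 and 0.22).

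Counted together, 7 of the 9 genes were called higher on depletion with DMSO and 0 lower (7 and 0 also at an unadjusted p under 0.05 in limma), against 14.8% of all genes called higher and 18.4% lower. Their median difference was 0.14 and that of all genes 0.03. The count of 7 became 4 when complete-medium DMSO replicate 2 or 4 or depleted DMSO replicate 2 was left out. In the other contrasts the 7 genes other than ETV4 and ETV5 were tested. On depletion with PD98059, 2 of them, ETS2 and ERF, were called higher and 1, ELK1, lower, against backgrounds of 12% higher and 15.3% lower, with a median of 0.03 against 0.003. With PD98059 in complete medium 2, ETS2 and ELK3, were called lower and 0 higher (3 and 0 at an unadjusted p under 0.05), where 6.74% of all genes were called lower and 7.59% higher. Without histidine 5 were called lower and 0 higher (5 and 0 unadjusted), where 10.9% of all genes were called lower and 13.5% higher, and 4 were called lower in the 13 of 16 fits without 1 array in which GABPA lost its call. The medians of these 7 genes were -0.08 and -0.20, against 0.01 and -0.006 for all genes. In the interaction 0 of the 7 were called in either direction by limma (1 lower at an unadjusted p under 0.05, ELK1), against 2.91% of all genes higher and 2.83% lower. Without the array that stood apart 1 was called lower, ELK1, and the genes called in all rose from 1289 to 3145.

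The group profile nearest to that of ETV5 was sought among 20402 named genes, by the root mean square difference between the 4 group means. Each gene was first centred on its own mean. The ETS genes examined and all symbols beginning with LOC, LINC, MIR or SNOR were left out of the search. NR0B2, a nuclear receptor that represses bile acid synthesis, was the nearest at 0.065, followed by CEMIP at 0.133, SPRED1, a feedback inhibitor of RAF activation, at 0.150, SLC51B, a bile acid transporter subunit, at 0.171 and TTC39B at 0.176. ETV4 itself was at 0.122 from ETV5, and 1 gene, NR0B2, was closer. The median gene was at 0.508. Leaving out the ETS genes themselves, the nearest to ETV4 were MIXL1, a homeobox gene, at 0.069, NR0B2 at 0.117, HOXD1 at 0.132, NCR3LG1 and CEMIP at 0.140 each. These distances rest on 4 group means and describe shape alone. The centred means of NR0B2 were 0.18, 0.52, -0.76 and 0.06 for DMSO in complete medium, DMSO without histidine, PD98059 in complete medium and PD98059 without histidine, against 0.28, 0.50, -0.83 and 0.05 for ETV5.

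**Figure D3:**
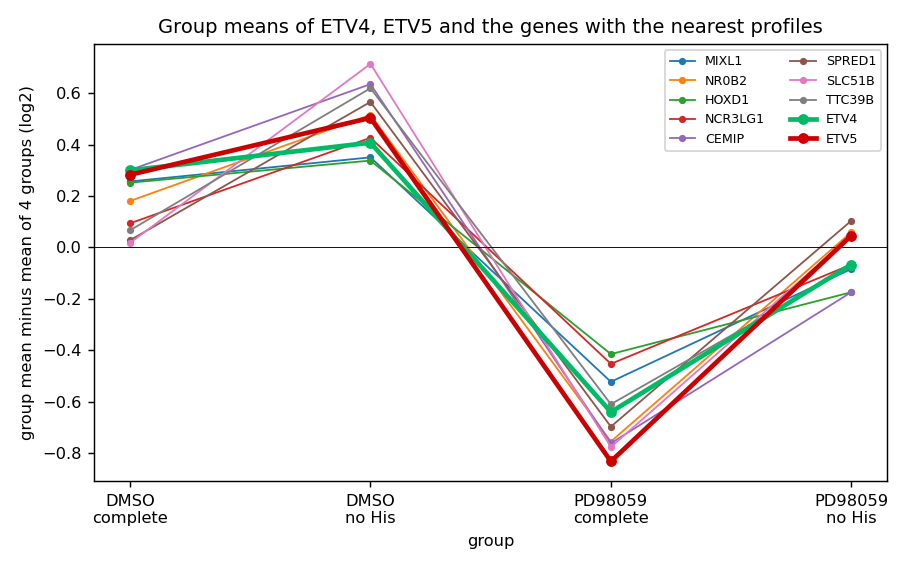
Group means of ETV4 and ETV5 (thick lines) and the genes with the nearest profiles (thin lines), each minus its own mean over the 4 groups, on the log2 scale. Lines join groups only to show shape; every profile is lowest with PD98059 in complete medium and highest with DMSO without histidine.

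Of the 18 other ETS family genes, all of them measured, 6 rose, 1 fell and 11 were not called on depletion with DMSO, where 14.8% of all genes were called higher and 18.4% lower. ELF2 rose by 0.27 (adjusted p = 7.51e-05) and ELF3, an epithelial ETS factor, by 0.17 (adjusted p = 0.000107). ETV3, a repressor related to ERF, and ELF1 rose by 0.14 each (adjusted p = 0.000249 and 0.0209), ELF4 by 0.12 and ETV3L by 0.11. ELF5, an epithelial factor, fell by a log2 difference of -0.28 (adjusted p = 0.000115). The list's median was 0.08, against 0.03 for all genes. With PD98059 present 4 rose and 2 fell on depletion (12% and 15.3% of all genes), with ETV6, a repressor, at 0.20, ELF3 now at -0.14 and ELF5 at -0.54 (adjusted p = 1.53e-07). PD98059 in complete medium raised ELF5 by 0.40, ELF3 by 0.23 and ELF1 by 0.17 and lowered ETV3 by a log2 difference of -0.13, with 14 not called. Of all genes 7.59% were called higher there and 6.74% lower. Without histidine PD98059 raised ELF1 by 0.22 and ELF5 by 0.14 and lowered ETV3, ELF4 and ELF3 at -0.13, -0.11 and -0.09. In that contrast 13.5% of all genes were called higher and 10.9% lower. ELF3 and ELF5 had lower depletion responses under PD98059, and their interactions were -0.32 (adjusted p = 0.000138) and -0.26 (adjusted p = 0.0269).

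All 5 partner genes of these factors were measured. On depletion with DMSO, SRF, the partner of the ternary complex factors, rose by 0.23 (adjusted p = 7.95e-05), its coactivator MRTFA by 0.44 (adjusted p = 3.64e-08) and GABPB1, the activating subunit bound by GABPA, by 0.41 (adjusted p = 8.59e-07). GABPB2, dim at group means of 5.30 to 5.38, rose by 0.07 with overlapping arrays, and MRTFB fell by a log2 difference of -0.22. PD98059 lowered GABPB1 at -0.19 in complete medium and -0.38 without histidine, where SRF was at -0.24 (adjusted p = 0.000103), MRTFA at -0.16 and MRTFB, which rose, at 0.27. The interaction was called for MRTFB at 0.18 (adjusted p = 0.0463).

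Of 9 genes for the capicua repressor and for turnover of PEA3 proteins, 4 rose and 2 fell on depletion with either agent. The shares of all genes were 14.8% higher and 18.4% lower with DMSO and 12% and 15.3% with PD98059, so the count that fell was near the background. CIC, which encodes capicua, fell by a log2 difference of -0.11 with DMSO (adjusted p = 0.012) and -0.21 with PD98059 (adjusted p = 8e-05), and was at 0.10 for PD98059 in complete medium (adjusted p = 0.0476). ATXN1, a capicua partner, rose by 0.62 with DMSO and 0.32 with PD98059 (interaction -0.30, adjusted p = 0.00286). TRIB1, a scaffold for the COP1 ubiquitin ligase, had the largest values of this list. TRIB1 rose on depletion by 1.39 ± 0.028 with DMSO (adjusted p = 5.05e-15) and 0.86 ± 0.028 with PD98059, and was lower with PD98059 at -0.54 in complete medium and -1.08 without histidine. COP1 itself was not called in any contrast, and its partner DET1 rose on depletion by 0.25 with DMSO and 0.34 with PD98059. Of the ligase's other subunits, CUL4A rose by 0.14 with DMSO and 0.09 with PD98059, and DDB1 fell, at -0.07 and -0.12. PD98059 lowered CUL4A in both media, at -0.11 and -0.16, and ATXN1L, a capicua partner, without histidine, at -0.14 (adjusted p = 0.00121).

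Of 12 genes known as targets of capicua repression, 10 rose and 2 were not called on depletion with DMSO, and 8 rose and 4 were not called with PD98059 present, where 14.8% and 12% of all genes were called higher. Their median difference was 0.35 with DMSO and 0.42 with PD98059, against 0.03 and 0.003 for all genes. PD98059 lowered 8 in complete medium and 8 without histidine, where 6.74% and 10.9% of all genes were called lower. These medians were -0.43 and -0.28, against 0.01 and -0.006. The depletion response was larger under PD98059 for DUSP6, the ERK phosphatase, with an interaction of 0.42 (adjusted p = 0.00286), for SPRED2 at 0.19 (adjusted p = 0.00896) and for SPRED1 at 0.26 (adjusted p = 0.0166). It was smaller for SPRY4, at -0.44 (adjusted p = 0.000223), and for FOSL1, an AP-1 subunit, at -0.45 (adjusted p = 2.44e-05). The list thus moved in both directions in the interaction, with a median of 0.04. Like the other lists here, it was chosen with earlier results of these data known, so its counts and p-values are a description. The ETV4 and ETV5 values of 0.47 and 0.66, not tested, had the sign of DUSP6, SPRED1 and SPRED2 and the sign opposite to SPRY4 and FOSL1.

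The 11 measured serum response element genes had a median interaction opposite in sign to the ETV4 and ETV5 values. On depletion with DMSO 10 rose, and with PD98059 7 rose and 4 were not called (14.8% and 12% of all genes called higher). In the interaction 6 were called lower and 5 were not called, against 2.83% of all genes called lower, with a median of -0.47 against -0.02. PD98059 lowered 5 of them in complete medium and 10 without histidine (6.74% and 10.9% of all genes). In the interaction EGR1, an immediate-early transcription factor, was at -1.47 (adjusted p = 5.34e-09). MCL1, a survival gene, was at -0.78 (adjusted p = 5.34e-09), CCN1 at -0.66 (adjusted p = 5.57e-06) and FOS at -0.47 (adjusted p = 0.000137). These genes share the experiment's arrays with the ETS genes, and the difference between the lists was not tested. This list too was chosen with earlier results of these data known, so its counts and p-values are a description.

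**Figure D4:**
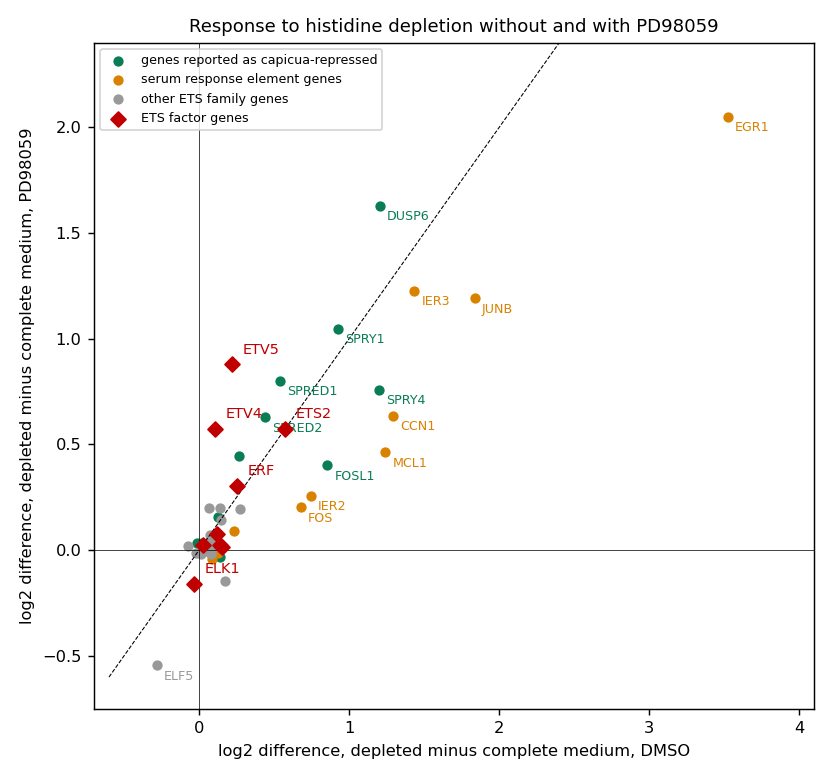
Log2 difference between depleted and complete medium with DMSO (horizontal axis) and with PD98059 (vertical axis) for the 9 ETS genes (red diamonds), the other ETS family genes and both target lists. The dashed line marks equal responses; ETV4, ETV5, DUSP6, SPRED1 and SPRED2 lie above it, ETS2 and ERF near it, and FOS, MCL1, CCN1, SPRY4 and FOSL1 below it.

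Of 13 measured genes known as targets of PEA3 factors in carcinoma cells, 3 rose and 10 were not called on depletion with DMSO, where 14.8% of all genes were called higher. ICAM1, an adhesion molecule, rose by 0.81 (adjusted p = 1.56e-09) and PLAU, which encodes urokinase, by 0.21 (adjusted p = 2.51e-06). VIM rose by 0.08 (adjusted p = 0.0439) but was dim, with group means from 6.02 to 6.10, below the median of all values. MMP1, MMP7, PTGS2 and CXCR4 also lay below that median, which limits what their rows can register. With PD98059 present ICAM1 rose by 0.72, and SPP1 and PLAUR, the urokinase receptor, were lower at -0.23 and -0.09. PD98059 lowered ICAM1, PLAUR and PLAU in complete medium, at -0.75, -0.20 and -0.15 (6.74% of all genes called lower). Without histidine it lowered 6 (10.9% of all genes), among them ICAM1 at -0.84, PLAU at -0.37, PLAUR at -0.35 and SPP1 at -0.19. The interaction of PLAU was -0.21 (adjusted p = 0.00106), the sign opposite to that of ETV4 and ETV5. Of 9 measured genes known as GABP targets, 2 rose, 3 fell and 4 were not called on depletion with DMSO, against 14.8% of all genes higher and 18.4% lower. TFB2M rose by 0.46 (adjusted p = 2.72e-07) and TFAM by 0.27 (adjusted p = 3.51e-06). MRPL12, COX5B and SDHD fell, at -0.13, -0.11 and -0.10, and TFB1M was at -0.04 (adjusted p = 0.457).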

How the data were processed

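Each condition was run as 4 separate incubations, per the labels, with 1 array each of biotin-labelled cDNA made from 100 ng of RNA. The authors deposited log2 values. Per the submitters' processing notes RMA, Partek 6.6 and the build hg19 were used, and the array's own scanner output was not used here. RMA can compress dim signals. The number of arrays sets the precision.

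Of 70459 rows, 23780 had 1 gene symbol in the platform annotation, 1543 had several and 45136 had none. Entrez identifiers matched 21496 of the rows with 1 symbol to the RefSeq table. The highest-mean row per symbol gave 22464 genes, fitted together by limma 3.58.1 (R 4.3.3, group means of all 16 arrays, eBayes), with Benjamini-Hochberg adjustment over all of them and calls under 0.05. Each adjusted p here is limma's, and ± gives the SE. The interaction is the depletion response with PD98059 minus that with DMSO. The fit was also run on simulated data with independent noise on each array. That run does not cover correlated arrays, and no result here rests on it. Promoter windows are RefSeq's.

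The ETS genes and the lists were chosen with earlier results of these data known. All 10 genes are named. From the family, partner and capicua lists any called gene may be named. From the target lists up to 4 with the lowest adjusted p in a contrast may be named. For ETV4 and ETV5 the 5 nearest profiles among the 20402 genes searched are named. COP1 and some target genes beyond those 4 were named after their values were seen. Alternatives covered the samples fitted, replicate numbers as a block, variance trend, dim genes, normalization, row choice, array weights, threshold and single arrays. Same-numbered arrays were not treated as pairs in the main fit. Their deviations correlated from -0.323 to 0.514, and 9 of 24 pairs exceeded 0.1. Replicate 3 arrays other than DMSO in complete medium correlated with each other at 0.374 to 0.514. A partial pairing was not tested beyond the fit with replicate numbers as a block.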

Additional observations from a re-analysis of the deposited data

How the results depend on the processing

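The rises of ETS2 and ERF on depletion with either agent and of ETV5 with DMSO kept their calls in the alternatives run, as did the lower ETS2 and ELK3 values under PD98059. Replicate numbers as a block changed no call of the 9 genes, and the called genes numbered 8048 in place of 7475 for depletion with DMSO, 6456 in place of 6148 for depletion with PD98059, 3504 in place of 3218 and 5801 in place of 5492 for PD98059 in complete and depleted medium, and 1492 in place of 1289 in the interaction. Of 16 arrays 6 correlated best with their own number. At an adjusted p under 0.01, ETV5, ETS2 and ERF kept their calls on depletion with DMSO, and ETV4, ETS1, ELK3 and GABPA lost theirs. In that contrast at least 5688 genes in all, in either direction, were called in every alternative run. The share of all genes called higher at 0.01 is not given here. At that threshold 2018 genes in all were called for PD98059 in complete medium and 592 in the interaction. With every row tested, the calls were 13633 and 9719 rows for depletion with DMSO and PD98059 and 8362 for PD98059 without histidine. ETV4 was then not called on depletion with DMSO (adjusted p = 0.0637). Array weights called 5920 genes for PD98059 in complete medium, ELK1 among them (-0.08, adjusted p = 0.0232), and 4615 in the interaction, with 2 ETS genes lower (ETS1 at -0.15, adjusted p = 0.0431, and ELK1). With added quantile normalization ELK1 was called lower in the interaction (-0.14, adjusted p = 0.0364). Equal array medians called 782 genes there. The GABPA call with PD98059 without histidine was lost with array weights, equal medians, every row tested and a fit of that contrast's groups alone, and ELK3 was called on depletion with PD98059 with array weights (0.09, adjusted p = 0.0386). The filter on dim genes removed ETV1 and ETS1.

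Leaving out single arrays gave 4 to 7 ETS genes higher on depletion with DMSO, where 6608 to 9063 of the 22464 genes were called in either direction. In the interaction it gave 0 to 1 ETS genes lower and 916 to 3145 genes called in either direction, the last without replicate 3 of PD98059 without histidine. Small uncalled values changed sign. With array weights ETS1 on depletion with PD98059 was -0.016, GABPA with PD98059 in complete medium -0.015, ERF with PD98059 without histidine -0.0032 and the ETV1 interaction -0.012, and with equal medians that GABPA value was -0.0067. Over single arrays left out, on depletion with PD98059 ETS1 ran from -0.0085 to 0.049 and GABPA from -0.026 to 0.054, GABPA in complete medium with PD98059 from -0.017 to 0.016, ERF without histidine from -0.011 to 0.041, and the interactions of ETV1 from -0.022 to 0.019 and of ETS2 from -0.0092 to 0.019. The causes were not tested. Dim signals limit ETV1 and ETS1.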
